A study of Oryza sativa with 6 samples.

Results

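Among 39367 genes measured in rice panicles, 103 loci lay outside the gene annotation and carried protein domains of transposable elements. They were chosen from the 2524 newly assembled loci of the deposited table. A locus was taken when its domain description named a reverse transcriptase, integrase, gag protein, transposase, helitron, hAT or MULE element and its counts over all 6 libraries summed to at least 10. Domain words and summed counts therefore chose the members and are given only as a description. The loci have no symbol, and each is called here by the serial number in its identifier, so that the identifier of locus 776 ends in 776. Positions come from the deposited table. Its genome build is not named in any source used here.

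RNA was sequenced from 3 libraries of the line CTB3-cr1 and from 3 libraries of the wild-type cultivar Nipponbare. Both genotypes had 1 day of cold stress, a treatment called CS-PT, which the labels leave unexplained. The genotype field calls CTB3-cr1 a knockdown of CTB3, while its library names use KO. The question was which transcripts differ between the genotypes after cold. CTB3-cr1 was the only CTB3 line sampled, so effects of CTB3 and of anything else that separates this line from Nipponbare cannot be told apart. CTB3 itself was not checked, since the sources used here give it no gene identifier. Replicates are called biological in the titles, without saying which plants or cultures they came from, so p-values measure the spread between these libraries.

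Transposable elements are DNA segments that can move or copy themselves within a genome. Retrotransposons do so through an RNA copy, which a reverse transcriptase turns back into DNA. Those with long terminal repeats (LTR) also encode a gag protein that forms the particle shell and an integrase that inserts the copy, and their copia and gypsy superfamilies differ in the order of these domains. DNA transposons of the CACTA, Mutator and hAT superfamilies are cut out and reinserted by a transposase, whereas helitrons are thought to move by rolling-circle replication with a helicase. In plants most elements are kept silent by DNA methylation, repressive histone marks and small RNAs. An element's transcript is a step toward movement but does not show that it moved.

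By domain, 24 of the 103 loci were gypsy-type LTR elements, 23 were copia-type LTR elements and 4 were LTR elements of both or unclear type. A zinc-binding reverse transcriptase domain without gag or integrase marked 14 loci, and another reverse transcriptase domain marked 7, of which locus 1520 also held an SRR1 and locus 2168 a PPR domain. Among DNA transposons, 12 loci carried Mutator, 10 CACTA and 5 hAT domains. Helitron helicase domains were found in 3 loci, and locus 2088 on chromosome 7 from 17298643 to 17309675 joined CACTA and copia-type LTR domains. A gag-related domain, GAG-pre-integrase included, was present in 40 loci. In 15 loci a gag-related or putative gypsy-type transposon domain occurred with an integrase core and any domain whose name mentions reverse transcriptase. One domain was all that 37 loci held, while 18 held 5 or more, with 7 as the highest number.

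The loci were long and mostly apart from annotated genes. Their median transcript length was 3875 bases, with a range of 527 to 12871, against 1559 bases over all tested genes. Only locus 873 overlapped annotated sequence. It spanned 96816 bases for a transcript of 10795 bases and overlapped Os02g0212900, while any other genes in its span were not listed. Within 1000 bases of an annotated gene lay 32 loci, and 68 lay within 5000 bases. The median distance was 2987 bases. Of the 32 closest loci, 10 were on the same strand as their neighbour. Chromosome 7 held the most loci, 14, followed by chromosome 1 with 12, and chromosome 5 held the fewest, 3. These elements are repeats, and the sources used here do not say how reads that map to several copies were counted. Counts of loci with near-identical copies are therefore uncertain.

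A further 13 loci had the domain words but fell short of the summed count. Their sums were 9, 5, 4 and 1, and the other 9 were at 0. The smallest sums among the 103 members were 16, 24 and 25. All 13 of these low loci overlapped another newly assembled locus, against 11 of the 103 members. Loci 112 and 257 on chromosome 1, for example, spanned the same bases on opposite strands, from 31906326 to 31911655, and both were at 0. The part of this overlap in the low counts was not tested.

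Total counts ranged from 14422565 to 16982031 per library, with 30298 to 30724 genes detected. As a check of the tissue, the floral gene Os07g0108900, used as a marker of floral organ identity, stood at 334.8 to 359.8 CPM (counts scaled to library size) in CTB3-cr1 and 296.1 to 322.3 CPM in Nipponbare. The leading component of log expression (38.9% of the variance) gave Nipponbare replicate 2 the highest score, 80.3. CTB3-cr1 replicates 1 and 3 had the lowest, -54.8 and -42.3, and the remaining libraries lay between -4.02 and 17.2. On the second component Nipponbare replicate 3 was highest, at 67.1, and CTB3-cr1 replicate 2 lowest, at -43. In bulk panicles, fewer cells of a type and less RNA per cell cannot be told apart.

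The 103 loci together took a small and similar share of the transcripts in both genotypes. In CTB3-cr1 they took 0.19%, 0.159% and 0.172% of the counts in replicates 1 to 3. In Nipponbare they took 0.162%, 0.18% and 0.2%. The groups overlapped, and the means of 0.174% ± 0.0157 in CTB3-cr1 and 0.181% ± 0.0189 in Nipponbare (SD, n = 3 each) differed by less than the spread between replicates. Counts were found in every library for 94 of the loci. Gypsy-type elements gave 27.1% of the loci's counts, Mutator elements 22.3%, CACTA elements 13.8%, helitrons 10.7% and copia-type elements 10.3%. Of the 18033 helitron counts, 16540 came from locus 1464 alone.

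**Figure D1:**
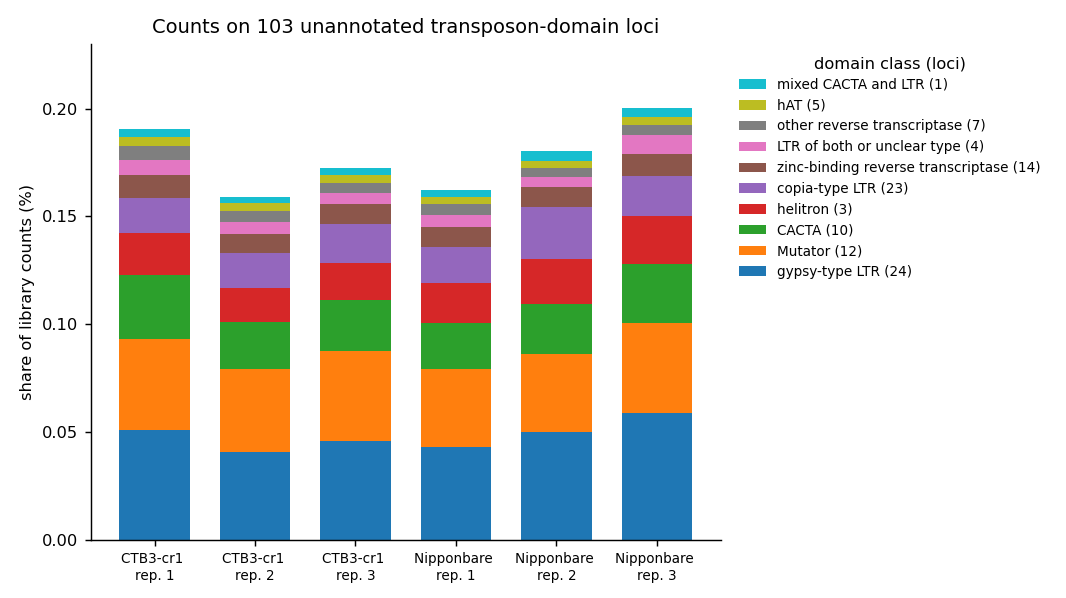
Stacked bars give the share of each library's counts, in percent, that fell on the 103 loci, with CTB3-cr1 replicates 1 to 3 on the left and Nipponbare replicates 1 to 3 on the right. Colours are domain classes with their number of loci, and the bars reach between 0.159% and 0.2% with overlapping genotypes.

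Per length, Mutator loci were the most strongly transcribed class of more than 1 locus by the median. FPKM, a level scaled to transcript length and library size, had a median of 9.34 over Mutator loci, 3.52 over CACTA loci, 2.81 over gypsy-type loci and 1.19 over copia-type loci. The highest single level belonged to the helitron locus 1464 on chromosome 4 from 16861815 to 16872536, which also carries a PIF1-like helicase and a reverse transcriptase domain. It had 19.2 ± 1.50 FPKM in CTB3-cr1 and 20.5 ± 1.04 FPKM in Nipponbare (SD, n = 3 each). Locus 130, with a zinc-binding reverse transcriptase domain on chromosome 1 from 38840236 to 38842422, had 19.2 ± 2.09 FPKM in CTB3-cr1 and 18.6 ± 1.61 FPKM in Nipponbare. These levels lay within the spread between replicates of each other.

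The 4 most abundant Mutator loci paired a MULE transposase domain with a MuDR transposase domain, and all but locus 256 also held a SWIM zinc finger. Locus 1388 (chromosome 4, bases 24454636 to 24459061) received 1099, 1053 and 1197 counts in CTB3-cr1 and 996, 890 and 1262 in Nipponbare. Locus 256 (chromosome 1, bases 31672178 to 31676349) received 890, 874 and 1048 counts in CTB3-cr1 and 795, 767 and 1019 in Nipponbare. In both loci the genotypes overlapped, and their log2 fold changes of CTB3-cr1 over Nipponbare were 0.03 ± 0.11 and 0.06 ± 0.11 (SE). Loci 1931 and 2258 of the same type had log2 fold changes of 0.19 ± 0.13 and 0.06 ± 0.13 (SE).

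The CACTA loci 479 and 1122 encode a tnp2-family and a Ptta/En/Spm-type transposase. Locus 479 (chromosome 11, bases 5441814 to 5450953) had 14.9 ± 1.26 FPKM in CTB3-cr1 and 14.2 ± 0.866 FPKM in Nipponbare (SD, n = 3 each). Locus 1122 (chromosome 3, bases 15065819 to 15073526) had 11.8 ± 1.12 FPKM in CTB3-cr1 and 12.1 ± 0.572 FPKM in Nipponbare. The most abundant hAT locus, 134 (chromosome 1, bases 39636956 to 39643018), received 299, 263 and 275 counts in CTB3-cr1 and 202, 206 and 269 in Nipponbare. Scaled to library size, the 3 CTB3-cr1 libraries lay just above the Nipponbare ones, at a log2 fold change of 0.25 ± 0.16 (SE). Among gypsy-type loci the most abundant, 1188 on chromosome 3 from 2615500 to 2626976, had a log2 fold change of -0.21 ± 0.14 (SE). For each of the abundant loci named in these 3 paragraphs, the adjusted p was 0.996 in edgeR's quasi-likelihood test with Benjamini-Hochberg adjustment.

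Of the 103 loci, 93 had enough counts to be tested among 25636 genes, and 10 did not. By edgeR's quasi-likelihood test at a Benjamini-Hochberg adjusted p of 0.05, 0 loci were higher and 2 were lower in CTB3-cr1, whereas DESeq2 called 2 higher and 2 lower. Over all tested genes, 0.078% passed in edgeR, 0.0624% higher and 0.0156% lower, and 0.714% passed in DESeq2. An unadjusted p under 0.05 was reached by 12 loci (12.9%), 3 higher and 9 lower, against 5.25% of all genes, 1.66% higher and 3.6% lower. The genotypes did not overlap in 18 loci (19.4%), 8 higher and 10 lower, against 10.5% of all genes, 5.11% higher and 5.36% lower. These counts describe loci that passed a filter on low counts, through which a locus counted in one genotype alone can pass only because it differs.

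The median log2 fold change over the 93 loci was -0.06, with 42 positive and 51 negative, and 0.00 over all tested genes. The 10th and 90th percentiles were -0.94 and 0.41 over the loci, against -0.48 and 0.30 over all genes. Over tested newly assembled loci without transposon words they were -1.12 and 0.49, a wider range than over the 93 loci. Over tested annotated genes with the same words they were -0.46 and 0.18. In the authors' deposited table, 4 of the 103 loci had an adjusted p under 0.05, against 0.621% of the genes with a value there. These were loci 1356, 1957, 2059 and 776, with the deposited log2 fold changes -2.70, 9.65, 2.46 and -8.14 and the deposited adjusted p of 9.56e-16, 3.61e-11, 0.019 and 9.39e-08 in the authors' deposited table.

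**Figure D2:**
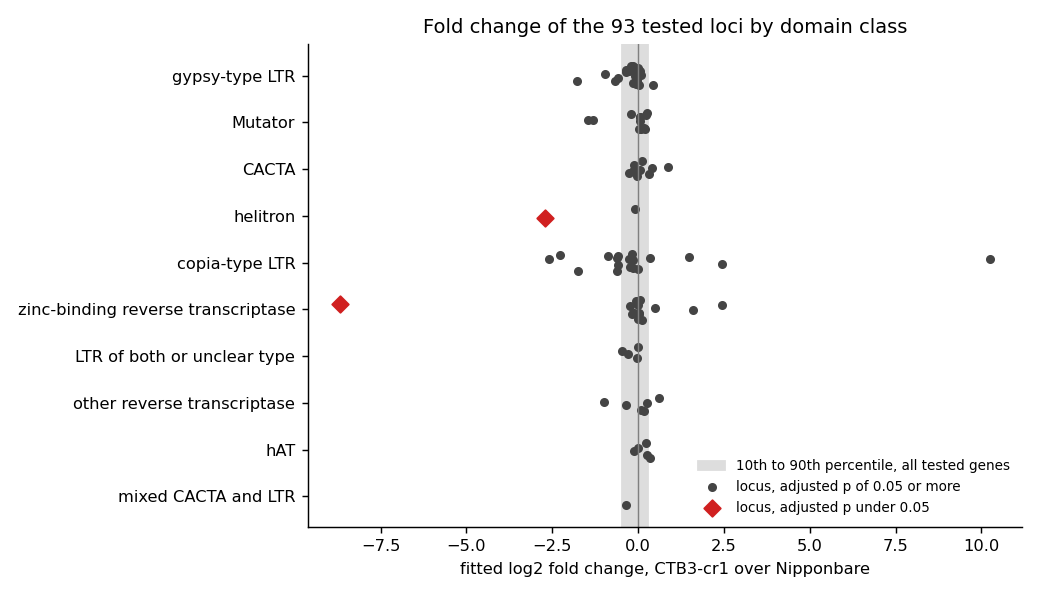
Each point is one of the 93 tested loci, by domain class, at its fitted log2 fold change of CTB3-cr1 over Nipponbare. The grey band spans the 10th to 90th percentile of all tested genes (-0.48 to 0.30), red diamonds mark the 2 loci with an adjusted p under 0.05, and the outermost points at -8.67 and 10.25 are loci at 0 in one genotype, whose fitted value depends on the prior count.

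Locus 776 was counted only in Nipponbare. It lies at the start of chromosome 12, from 1001 to 2663 on the minus strand, and holds a single zinc-binding reverse transcriptase domain. It had 0, 0 and 0 counts in CTB3-cr1 and 50, 49 and 49 in Nipponbare. The groups did not overlap, and the Nipponbare libraries were nearly alike. Against a floor of 3 counts over the 3 CTB3-cr1 libraries it was at least 51.7-fold lower in CTB3-cr1, and edgeR's quasi-likelihood test gave an adjusted p of 0.0467.

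The gene beside it showed the same pattern. Os12g0100100, annotated as an RNA binding domain-containing protein, starts 18 bases from the locus on the opposite strand, at 2682. It had 1, 0 and 0 counts in CTB3-cr1 and 736, 547 and 824 in Nipponbare, with an adjusted p of 0.000291 in edgeR's test. Over the 20 pairs of a tested locus and its nearest tested gene within 1000 bases, the log2 fold changes had a correlation of 0.91, which was 0.196 over the 19 pairs without Os12g0100100. Over 42 pairs farther apart it was 0.214. These pairs share libraries and are a description. The strand setting of the counting is not given, so reads of locus 776 and of its neighbour cannot be fully told apart. The call of locus 776 was lost when any 1 library was left out (edgeR adjusted p of 0.119 to 0.21), and the newer quasi-likelihood method of edgeR gave 0.0561.

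Locus 1356, with a helitron helicase-like domain, fell in CTB3-cr1. It lies on chromosome 4 from 17065888 to 17071538 on the plus strand. It had 40, 67 and 95 counts in CTB3-cr1 and 345, 400 and 500 in Nipponbare, with no overlap. The log2 fold change was -2.70 ± 0.29 (SE), and edgeR's quasi-likelihood test gave an adjusted p of 0.0397. It abuts Os04g0357300, a helicase-like gene on the opposite strand. That gene had 70, 76 and 117 counts in CTB3-cr1 and 132, 139 and 136 in Nipponbare. Its log2 fold change was -0.72 ± 0.23 (SE), for which edgeR's adjusted p was 0.779.

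The call of locus 1356 was also lost when any 1 library was left out (edgeR adjusted p of 0.0856 to 0.232), although its log2 fold change stayed between -2.98 and -2.46. In limma-trend on log2(FPKM + 0.1) its adjusted p was 0.0753. The other tested helitron was the abundant locus 1464 on the same chromosome, 193351 bases away, whose log2 fold change was -0.10 ± 0.12 (SE). The third, locus 430, had too few counts to be tested, with 6, 4 and 14 counts in CTB3-cr1 and 7, 2 and 13 in Nipponbare.

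Copia-type loci made up most of the differences with a low unadjusted p, in both directions. Of the 18 tested, 5 were on the positive and 13 on the negative side of 0, and the median log2 fold change was -0.25. They supplied 9 of the 12 loci with an unadjusted p under 0.05, 3 higher and 6 lower, and 10 of the 18 without overlap, 3 higher and 7 lower. Over all tested genes 5.25% had such a p and 10.5% had no overlap. None of the 18 reached an adjusted p of 0.05 in edgeR's test. Gypsy-type loci, by comparison, had 0 of 22 with an unadjusted p under 0.05 in edgeR's test, against the same 5.25% of all genes, and a median log2 fold change of -0.12. Of these 22, 5 were on the positive and 17 on the negative side of 0, so the lean to lower values was not particular to copia-type loci. The difference between these classes was not tested.

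Locus 1957 was counted only in CTB3-cr1. It lies on chromosome 7 from 5194603 to 5198111 and encodes a copia-type gag polypeptide with a zinc knuckle, a GAG-pre-integrase domain and an integrase core. It had 77, 201 and 193 counts in CTB3-cr1 and 0, 0 and 0 in Nipponbare. Against a floor of 3 counts over the 3 Nipponbare libraries it was at least 149.9-fold higher in CTB3-cr1. The adjusted p from edgeR, 0.0565, missed the threshold, and DESeq2 gave 3.56e-11. Its nearest annotated gene, Os07g0195400, 11852 bases away, had 732, 747 and 798 counts in CTB3-cr1 and 775, 576 and 689 in Nipponbare.

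A further pair of copia-type loci stood higher in CTB3-cr1 without passing edgeR's threshold. Locus 2059, on chromosome 7 from 5911569 to 5920103 with GAG-pre-integrase and integrase core domains, had 79, 85 and 115 counts in CTB3-cr1 and 2, 22 and 24 in Nipponbare. The groups did not overlap, and the log2 fold change was 2.45 ± 0.65 (SE), with an adjusted p of 0.672 in edgeR's test and 0.0188 in DESeq2. Locus 380 (chromosome 10, bases 1877303 to 1882730) received 30, 71 and 95 counts in CTB3-cr1 and 25, 21 and 19 in Nipponbare. Here CTB3-cr1 replicate 1 came close to Nipponbare, and the log2 fold change was 1.49 ± 0.43 (SE), with an edgeR adjusted p of 0.726.

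The 3 copia-type loci with the most negative log2 fold changes shared a high value in Nipponbare replicate 2. Locus 1016, on chromosome 2 from 15986635 to 15990835 with gag and reverse transcriptase domains, had 11, 11 and 46 counts in CTB3-cr1 and 58, 251 and 54 in Nipponbare. Locus 2399, on chromosome 9 from 18059604 to 18061513 with gag domains, had 11, 16 and 11 counts in CTB3-cr1 and 32, 104 and 31 in Nipponbare. Locus 640, on chromosome 11 from 21351498 to 21353196 with gag domains, had 10, 8 and 8 counts in CTB3-cr1 and 22, 42 and 18 in Nipponbare. In these 3 loci the groups did not overlap, and Nipponbare replicate 2 was the highest library each time.

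Their log2 fold changes were -2.59 ± 0.85 for locus 1016, -2.26 ± 0.63 for locus 2399 and -1.75 ± 0.50 for locus 640 (SE), and edgeR's adjusted p was 0.794, 0.714 and 0.715. Without Nipponbare replicate 2 they were -1.32, -1.30 and -1.19, and without CTB3-cr1 replicate 3 that of locus 1016 was -3.54. The more abundant copia-type locus 865, on chromosome 2 from 3431083 to 3441178, carries gag, integrase and reverse transcriptase domains. It had 404, 425 and 465 counts in CTB3-cr1 and 571, 721 and 510 in Nipponbare. The groups did not overlap, and the log2 fold change was -0.57 ± 0.20 (SE), with an edgeR adjusted p of 0.806. Locus 2088, which joins CACTA and copia-type domains, had 529, 460 and 545 counts in CTB3-cr1 and 557, 648 and 664 in Nipponbare. Its log2 fold change was -0.36 ± 0.14 (SE), for which edgeR's adjusted p was 0.904.

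**Figure D3:**
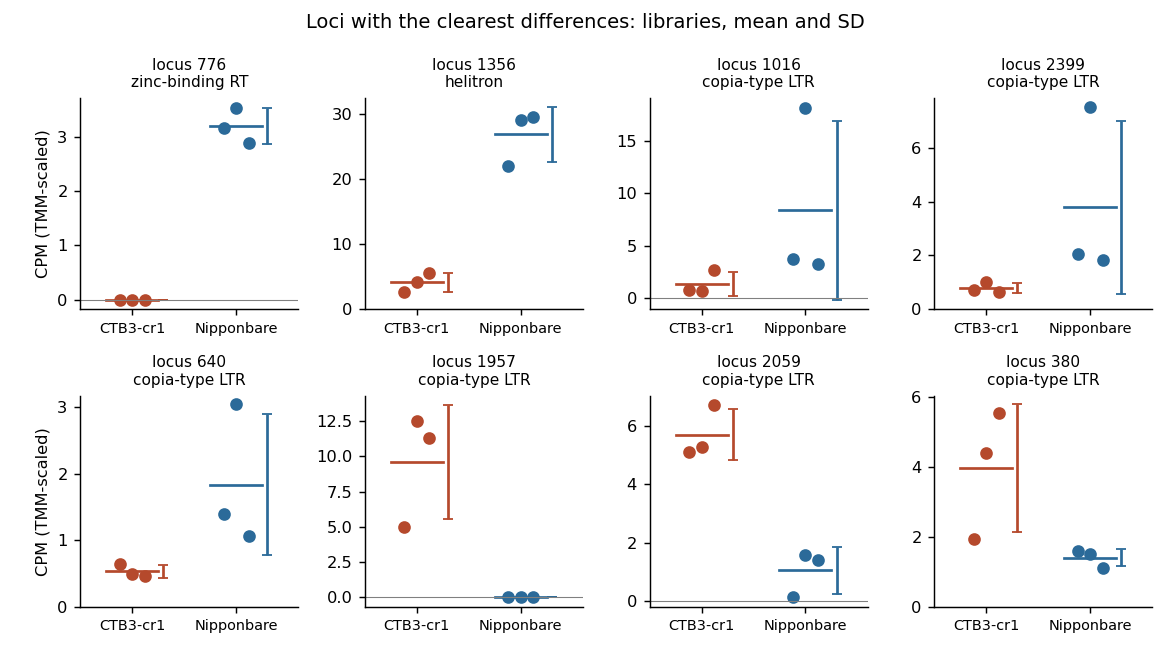
Each panel shows one locus in CPM scaled by TMM factors, with the 3 CTB3-cr1 libraries left of the 3 Nipponbare libraries, a line at the mean and a bar of 1 SD either side. Loci 776 and 1957 are at 0 in one genotype, and in loci 1016, 2399 and 640 a single Nipponbare library lies far above the other two.

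Nipponbare replicate 2 was the highest library for 30 of the 93 tested loci (32.3%), against 22% of all tested genes, and for 10 of the 18 copia-type loci. CTB3-cr1 replicate 2 was the highest for 4 loci (4.3%), against 16.9% of genes. Copia-type elements took 0.0161%, 0.0162% and 0.0182% of the counts in CTB3-cr1 and 0.0168%, 0.0243% and 0.0186% in Nipponbare, so that replicate 2 of Nipponbare alone stood apart. Among loci below the filter, copia-type loci 291 and 340 had the same shape. Locus 291 had 0, 3 and 7 counts in CTB3-cr1 and 16, 41 and 8 in Nipponbare, and locus 340 had 5, 6 and 7 in CTB3-cr1 and 13, 34 and 8 in Nipponbare.

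Marker genes of cell types were set beside these libraries. The summed level of 5 tapetum and pollen wall genes was 745.9 to 975.0 CPM in CTB3-cr1 and 1355.0 to 2060.2 CPM in Nipponbare, highest in Nipponbare replicate 2. This sum did not overlap between the genotypes, and the share of each of the 5 genes in it was not examined. The summed level of 3 photosynthetic genes was 896.4 to 1228.2 CPM in CTB3-cr1 and 847.1 to 2057.4 CPM in Nipponbare, again highest in Nipponbare replicate 2. Within CTB3-cr1 both sums were highest in replicate 2, at 975.0 and 1228.2 CPM. The copia-type share there was 0.0162%, and it was highest in CTB3-cr1 replicate 3, at 0.0182%. The floral marker Os07g0108900 was lowest in Nipponbare replicate 2, at 296.1 CPM. Of all these markers, 0 were at 0 CPM. The part of tissue make-up in the copia-type values, or in the fold changes of the other loci, was not tested.

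A few loci varied more between libraries of one genotype than between genotypes. Locus 2437, on chromosome 9 from 5221185 to 5236423 and described as a putative gypsy-type transposon, had 783, 73 and 103 counts in CTB3-cr1 and 31, 31 and 1582 in Nipponbare. Locus 1751, a CACTA element with a tnp2 transposase on chromosome 6 (bases 13375575 to 13383692), received 634, 49 and 67 counts in CTB3-cr1 and 20, 20 and 598 in Nipponbare. Locus 69, a gypsy-type element on chromosome 1 (bases 20849016 to 20863203), received 166, 47 and 47 counts in CTB3-cr1 and 23, 15 and 903 in Nipponbare. All 3 were highest in CTB3-cr1 replicate 1 and Nipponbare replicate 3, and the genotypes overlapped.

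The integrase locus 688, on chromosome 12 from 4352736 to 4358541, was high in the same libraries, with 243, 83 and 79 counts in CTB3-cr1 and 33, 25 and 462 in Nipponbare. The fitted log2 fold changes were -0.68 ± 1.49 for locus 2437, 0.33 ± 1.41 for locus 1751, -1.78 ± 1.38 for locus 69 and -0.30 ± 1.03 for locus 688 (SE), each with an adjusted p of 0.996 in edgeR's test. Without Nipponbare replicate 3 those of loci 2437 and 69 turned to 3.29 and 2.11, and without CTB3-cr1 replicate 1 that of locus 1751 turned to -1.88. The value of locus 1751 also turned to -0.21 without Nipponbare replicate 1 and to -0.20 without Nipponbare replicate 2. The signs of these 3 loci therefore changed when single libraries were left out.

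**Figure D4:**
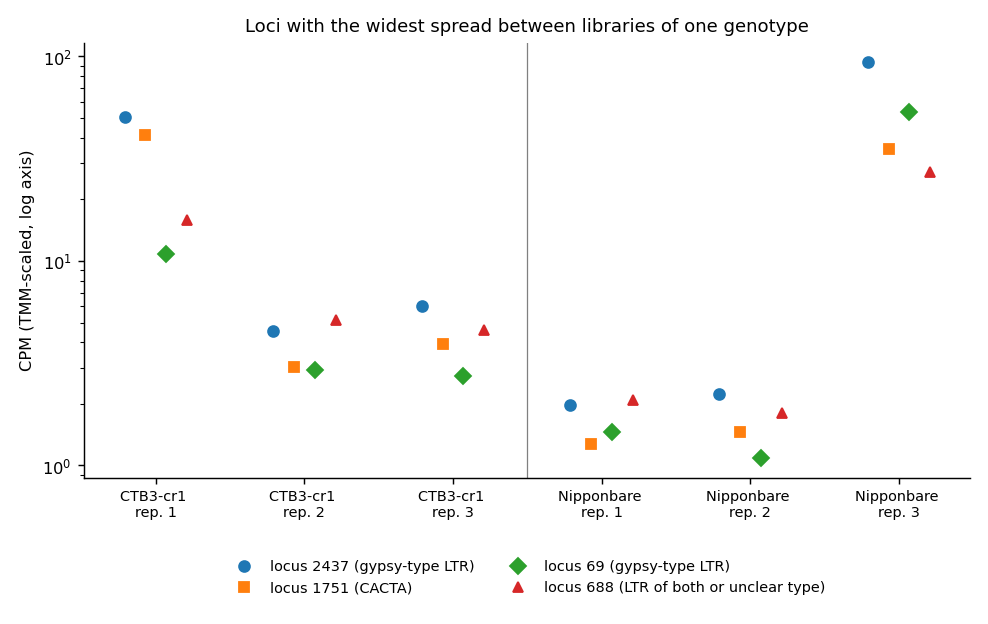
Points give the CPM (TMM-scaled, log axis) of 4 loci in each library, CTB3-cr1 on the left and Nipponbare on the right of the grey line. Within each genotype the highest library was the same for all 4 loci, CTB3-cr1 replicate 1 and Nipponbare replicate 3.

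Some genes near these loci were high in the same libraries, and others were not. Os12g0186600, 3676 bases from locus 688 on the same strand, had 338, 114 and 152 counts in CTB3-cr1 and 41, 33 and 761 in Nipponbare. Os06g0335900, a xyloglucan endotransglucosylase/hydrolase gene 6189 bases from locus 1751, had 78, 3 and 20 counts in CTB3-cr1 and 1, 2 and 78 in Nipponbare. Os06g0335975, the nearest annotated gene of locus 1751 at 2840 bases, had 51, 4 and 17 counts in CTB3-cr1 and 8, 2 and 62 in Nipponbare. The newly assembled locus 2354, 19751 bases from locus 2437, had 13, 0 and 9 counts in CTB3-cr1 and 0, 1 and 16 in Nipponbare. In contrast, Os06g0335500, 26519 bases from locus 1751, had 4449, 6930 and 6895 counts in CTB3-cr1 and 7049, 5809 and 5456 in Nipponbare. Os06g0336200, 23626 bases from locus 1751, had 9384, 16137 and 10873 counts in CTB3-cr1 and 10598, 10235 and 13319 in Nipponbare. Os09g0269400, the one annotated gene within 30000 bases of locus 2437, had 0 in every library and so cannot show either pattern. These genes and locus 2354 were picked after their values were seen. The pairing of CTB3-cr1 replicate 1 with Nipponbare replicate 3 as the highest libraries was found in 20.4% of the 93 loci and in 21.2% of all tested genes.

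Spread between replicates, as edgeR's biological coefficient of variation, had a median of 0.212 over the loci and 0.216 over all tested genes. Over tested newly assembled loci without transposon words the median was 0.299. The 90th percentile was 0.589 over the loci and 0.414 over all genes, and locus 2437 had the highest value among the loci, 1.15. A range of at least 5-fold between the libraries of either genotype was found in 13 loci (14%), against 4.9% of all genes. In both genotypes it was found in loci 2437 and 1751 (2.15%), against 1.03% of genes. A genotype with a library at 0 and another above 0 counted as such a range. The median of the mean CPM was 9.07 over the 103 loci and 15.1 over all tested genes. Mutator loci had a median coefficient of variation of 0.151 and copia-type loci one of 0.248.

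**Figure D5:**
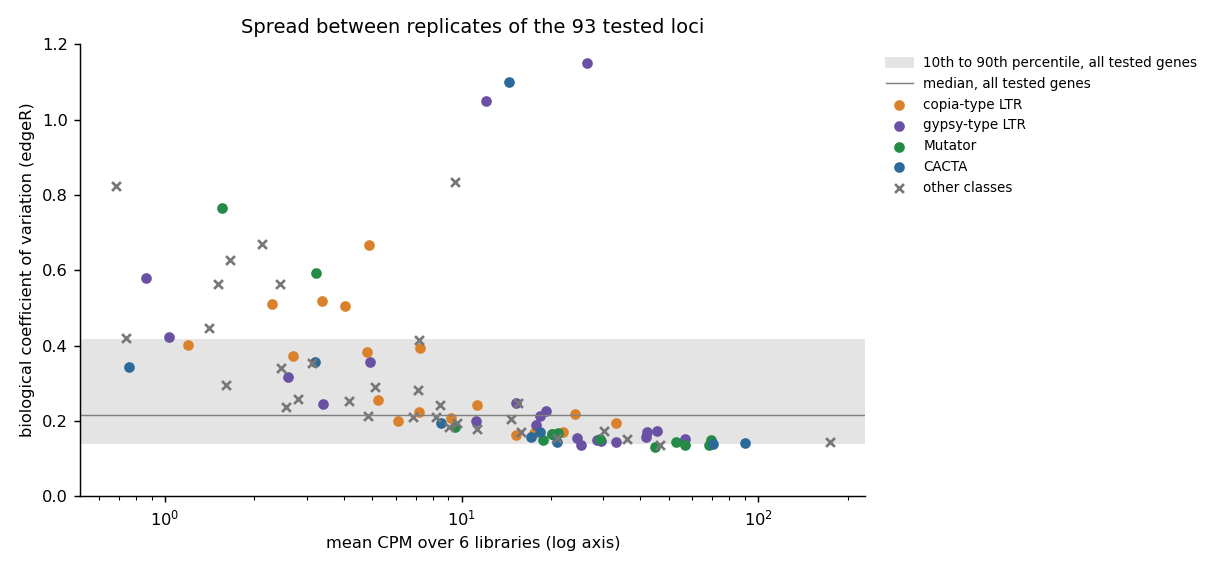
The biological coefficient of variation of each tested locus is plotted against its mean CPM over 6 libraries (log axis), coloured by domain class. The grey band spans the 10th to 90th percentile of all tested genes (0.141 to 0.414) around a median of 0.216, and loci 2437, 1751 and 69 stand above the rest at 1.15, 1.10 and 1.05.

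Outside these groups, 3 loci with a zinc-binding or other reverse transcriptase domain had uneven counts. Locus 554 (chromosome 11, bases 27080891 to 27088451) received 95, 65 and 14 counts in CTB3-cr1 and 14, 14 and 29 in Nipponbare. Locus 682 (chromosome 12, bases 2981591 to 2983409) received 11, 13 and 34 counts in CTB3-cr1 and 0, 0 and 10 in Nipponbare. Their log2 fold changes were 1.59 ± 0.69 and 2.45 ± 1.09 (SE), and edgeR's adjusted p was 0.94 and 0.948. The untested locus 1521 had 3, 7 and 4 counts in CTB3-cr1 and 16, 25 and 8 in Nipponbare, without overlap.

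Annotated genes with the same domain words gave a reference for the unannotated loci. Of 79 such genes, 64 were tested and 0 were called by edgeR in either direction, with 3 at an unadjusted p under 0.05 and 1 called by DESeq2. Their median log2 fold change was -0.03, and the genotypes did not overlap in 10 of the 64 (15.6%). The words also matched unrelated genes such as GAGA-binding factors and telomerase reverse transcriptase. The lowest p among them belonged to Os08g0125300, with 8, 6 and 8 counts in CTB3-cr1 and 35, 38 and 26 in Nipponbare. Of 1572 tested newly assembled loci without transposon words, 3 were higher and 0 lower, with a median log2 fold change of 0.00. Among these, 9.61% had an unadjusted p under 0.05 in edgeR's test, and the genotypes did not overlap in 12.5%.

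Genes of silencing pathways, found by words such as argonaute, dicer and DNA methyltransferase, were examined beside the loci. Such words can also match unrelated genes, and these matches were kept. Of 72 such genes, 60 were tested and 0 were called by edgeR, with 3 at an unadjusted p under 0.05, and DESeq2 also called 0. Their median log2 fold change was -0.05. The chromatin remodeller gene DDM1a, needed for silencing of repeats, had a log2 fold change of 0.12 ± 0.13 and its paralogue DDM1b one of -0.24 ± 0.46 (SE). The maintenance methyltransferase gene MET1b had one of 0.16 ± 0.16 (SE). The dicer gene DCL3A, whose product cuts precursors of small RNAs, had -0.13 ± 0.17 (SE). DRM2, which encodes the methyltransferase of RNA-directed DNA methylation, had 0.78 ± 0.42 (SE). The AGO4a and AGO4b genes, whose products bind the small RNAs of that pathway, had -0.02 ± 0.15 and 0.06 ± 0.17 (SE). The lowest unadjusted p of the list, 0.0413 in edgeR, belonged to DNA methyltransferase 2 (Os01g0612000), whose part in silencing was not tested. Its log2 fold change was 0.24 ± 0.10 (SE), for which edgeR's adjusted p was 0.921. The edgeR adjusted p of the other genes named here lay at 0.988 or above, and they were picked after their values were seen.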

How the data were processed

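Panicle RNA went into libraries of an NEBNext Ultra RNA kit, read on an Illumina NovaSeq, per the labels' protocols. The submitters' processing notes name fastp 0.19.7, HISAT2 and DESeq2. Unknown are the genome build, annotation, assembly of new loci, read counter, strand setting and treatment of reads with several positions (not given in the sources used here). Raw counts and FPKM per library were deposited by the authors, per the file headers. The table also holds the authors' group means as a normalised signal, the authors' log2 fold changes and the authors' p-values, per the file headers. Columns were mapped to samples by library name.

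Lines without an identifier, 2 of 39369, were left out (at most 0.000478% of a library). The test was edgeR 4.0.16 (R 4.3.3), with filterByExpr, TMM scaling and a quasi-likelihood F test on estimateDisp dispersions, over all 25636 genes that passed, adjusted by Benjamini-Hochberg and called under 0.05. An approximate standard error was taken as log2 fold change divided by root F. TMM-scaled sizes underlie CPM. A fold against a genotype at 0 is bounded by a floor of 3 counts over its libraries, which covers counting error only. Library totals of 14422565 to 16982031 limit what can be said of weakly counted loci. Scripts were tested on simulated data. All pairs of libraries differed beyond counting noise (smallest chi-square per degree of freedom 13.9).

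The members, gene lists and tests were chosen with earlier results of these data known. Domain classes follow the deposited domain words, and their rule was refined after the loci were seen: gypsy-type words count as LTR, a transposase-associated domain as CACTA, MuDR as Mutator, and LTR loci were split into copia-type and gypsy-type. Classes carry no test. Named loci were those past the threshold, those counted in one genotype with at most 3 counts in the other, the 5 largest rises and falls with an unadjusted p under 0.05 and no overlap, the 8 highest by CPM, the 4 highest by FPKM, the most abundant of each class and the 3 most variable. Other loci and genes named were chosen after their values were seen. Alternatives were other scalings (RLE, upper quartile, library size alone), no filter or one of 1 CPM in 3 libraries, the newer quasi-likelihood method of edgeR, DESeq2 1.42.0, limma 3.58.1 by voom or by trend on log2(FPKM + 1) or log2(FPKM + 0.1), a replicate block, leaving out single libraries, and other sums for membership.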

Additional observations from a re-analysis of the deposited data

How the results depend on the processing

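Counts of calls depended on the test. Loci called higher numbered 0, but 1 with library size alone, without a filter, with limma-voom or with log2(FPKM + 0.1), and 2 with DESeq2; the call gained was locus 1957, joined by locus 2059 in DESeq2. Loci called lower numbered 2, but 1 with the newer quasi-likelihood method, with log2(FPKM + 0.1) or with log2(FPKM + 1) without a filter, and between 0 and 0 with 1 library left out. The replicate numbers do not pair the samples: the correlations of same-numbered deviations were -0.274, 0.367 and -0.0708. With the replicate number as a block, 0 loci were lower, and the log2 fold changes of loci 2437 and 69 turned to 0.62 and 0.16. DESeq2 called 1 annotated gene with the same words, where edgeR called 0. Other newly assembled loci called numbered 3, but 7 with library size alone, without a filter or with voom, 5 with a filter of 1 CPM or log2(FPKM + 1), 6 with the newer method, log2(FPKM + 0.1) or log2(FPKM + 1) without a filter, and 35 with DESeq2. Without the most abundant locus, the share in CTB3-cr1 was 0.157%. Leaving out 1 library gave 23 to 31 loci without overlap, since fewer libraries overlap less often. The median log2 fold change of the loci stayed between -0.11 and -0.01 in all these fits. The sign of uncalled loci turned in 19 cases. Leaving out 1 library gave log2 fold changes of -2.64 to 3.29 for locus 2437, -1.88 to 3.57 for locus 1751, -2.73 to 2.11 for locus 69, -0.01 to 0.10 for locus 479, -0.09 to 0.04 for locus 1122, -0.01 to 0.12 for locus 1388, 0.00 to 0.14 for locus 256, -0.03 to 0.15 for locus 2258, -0.04 to 0.13 for locus 130 and -0.10 to 0.03 for locus 873. Voom gave 0.42 and log2(FPKM + 1) without a filter 0.01 for locus 2437, and library size alone gave 0.00 for locus 1122. The causes were not tested.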

Other observations

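Some loci also held domains that the words used for the choice did not name. Whether these domains belong to the elements themselves was not tested. Locus 1007, a copia-type element with an NB-ARC domain, the nucleotide-binding part of many plant immune receptors, had 231, 225 and 287 counts in CTB3-cr1 and 224, 218 and 258 in Nipponbare. Locus 2211 paired a MULE transposase domain with the DNA-binding domain of FAR1, a light-signalling factor of Arabidopsis, and had 354, 496 and 476 counts in CTB3-cr1 and 466, 467 and 512 in Nipponbare. Locus 2284 held the same domains at 31, 11 and 49 counts in CTB3-cr1 and 63, 19 and 142 in Nipponbare. Locus 1765 joined a CACTA transposase-associated domain to a Ulp1 protease domain, found in enzymes that remove SUMO, and had 286, 257 and 321 counts in CTB3-cr1 and 247, 220 and 295 in Nipponbare. The gypsy-type loci 1928 and 1455 also held a chromodomain, a module that binds modified histones. Locus 1928 had 582, 644 and 836 counts in CTB3-cr1 and 745, 807 and 691 in Nipponbare.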
